A study of Mus musculus with 20 samples.

Results

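The antioxidant enzymes described here are the 2 superoxide dismutases *Sod1* and *Sod2*, catalase (*Cat*), the glutathione peroxidases *Gpx1* and *Gpx4*, the peroxiredoxin *Prdx6*, both subunits of glutamate-cysteine ligase (*Gclc* and *Gclm*) and the thioredoxin reductase *Txnrd1*. *Nfe2l2*, which encodes the transcription factor Nrf2, was added to them. The 10 genes were chosen by name and function, with earlier results of these data known. All 10 were found among the 17211 genes of the table. Brain RNA was sequenced from 10 *Winnie* and 10 C57BL/6 mice, to ask how gene expression in the brain differs in mice with chronic intestinal inflammation. *Winnie* mice have colitis that arises by itself from a missense mutation of *Muc2*, a mucin gene, and C57BL/6 mice served as controls. The study's methods give 14 weeks as the age of both groups and 1 breeding colony as their source, and no treatment is named for either group. In each genotype 5 mice are labelled female and 5 male, and each library comes from the brain of 1 mouse, with no brain region named in the labels. The study's methods give fewer brains of each genotype than the labels do and do not say which, so all 20 labelled brains were used here.

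Cells make superoxide mainly as a by-product of mitochondrial respiration, and superoxide dismutases turn it into hydrogen peroxide. Catalase, glutathione peroxidases and peroxiredoxins then remove the peroxide. Glutathione peroxidases draw on glutathione, whose first and rate-limiting step of synthesis is made by glutamate-cysteine ligase, and most peroxiredoxins draw on thioredoxin, which thioredoxin reductase keeps reduced. Nrf2 is held in the cytosol by Keap1 and degraded there. When it escapes, it pairs with small Maf proteins, binds antioxidant response elements and raises the transcription of genes such as *Gclc*, *Gclm* and *Txnrd1*. In the brain, astrocytes are known for strong Nrf2 activity and for supplying neurons with glutathione precursors. Much of the control of Nrf2 acts on the protein, which RNA levels do not show.

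The core of the antioxidant response element, TGACNNNGC, was searched on both strands in windows from 250 bases before to 50 bases after the gene start, which RefSeq gives on GRCm38.p6. Windows were given for 8 of the 10 genes, not for *Gclc* and *Prdx6*. The core lay in a window of 4 of these 8 genes, beside 14% of all 27025 symbols with a window and 12.4% of all 32851 windows. *Gpx4* had 4 windows and *Txnrd1* 3, so these genes had more chances to hold the core than a gene with 1. The 4 stretches are shown because they place a possible element of the Nrf2 pathway at genes whose values follow. The capitals mark the 9 bases of the core or, for *Sod1*, *Gclm* and *Txnrd1*, of its reverse complement, and each stretch reads 5′ to 3′ on the strand of its gene.
*Sod1*: caaggtggGCGTGGTCAgactcagg
*Gclm*: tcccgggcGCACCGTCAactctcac
*Txnrd1*: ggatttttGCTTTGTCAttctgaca
*Nfe2l2*: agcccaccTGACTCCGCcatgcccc
The *Sod1* stretch lies at chr16:90220698-90220722 on the plus strand, with the first base of the capitals at position -56 from the gene start. The *Gclm* stretch lies at chr3:122245415-122245439 on the plus strand, at -134. The *Txnrd1* stretch lies at chr10:82859106-82859130 on the plus strand, in 1 of the 3 windows of that gene. It is at -92 from the start used for that window. That start lies inside the gene as GENCODE places it, chr10:82833951-82897712, and not at the first base of the gene. The *Nfe2l2* stretch lies at chr2:75704887-75704911 on the minus strand, at -240. None of the windows of *Sod2*, *Cat*, *Gpx1* and *Gpx4* held these letters. A match is a description of the letters and shows no binding.

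The libraries held 16540303 to 23923769 reads over the listed genes, and values are in CPM, the reads of a gene scaled to the same total in every brain. Genotypes were compared with limma on log2(CPM + 0.5) over all genes, a call is an FDR (Benjamini-Hochberg adjusted p) under 0.05, and fold changes are on that log2 scale, *Winnie* minus C57BL/6. Across all genes 2.52% were called, 1.52% as higher and 1.01% as lower in *Winnie* brains, and the median log2 fold change was 0.002. RNA of the Y-linked gene *Ddx3y* and of *Xist* went with the labelled sex in 10 of 10 *Winnie* brains but in 1 of 10 C57BL/6 brains. The first component of variation, 23.9% of the variance, separated the 9 brains with *Ddx3y* RNA, 5 *Winnie* and 4 C57BL/6, from the 11 without it, so fold changes, ratios and the relations to *Nfe2l2* were also computed within these sets. The second component set C57BL/6 replicates 3 and 5 apart. Library numbers run from C57BL/6 to *Winnie*, so genotype and library order cannot be told apart. *Muc2* was not among the listed genes, so its RNA could not be examined here. Defining markers of neurons, astrocytes and oligodendrocytes were present in every brain, and their summed levels overlapped between genotypes. The 8 endothelial markers summed to 247 to 336 CPM in C57BL/6 and 303 to 353 CPM in *Winnie* brains. *Slc2a1* was called as higher and *Cldn5* as lower, and no endothelial marker was at 0. *Slc2a1* weighed most in this sum, with means of 95.6 CPM in C57BL/6 and 130.2 CPM in *Winnie* brains. Of the 8 markers, 6 had positive and 2 had negative fold changes. The part of these differences in the values below was not tested. In whole brain RNA, fewer cells of a type and less RNA per cell cannot be told apart.

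None of the 10 genes was called at FDR under 0.05, beside 2.52% of all genes, and the smallest FDR among them was 0.113 (limma). At an unadjusted p under 0.05, 4 of the 10 differed, with *Nfe2l2* and *Gclc* higher and *Sod1* and *Txnrd1* lower in *Winnie* brains, beside 17.6% of all genes and 21.7% of those with a mean of at least 10 CPM. With edgeR 0 of the 10 were called and 4 had an unadjusted p under 0.05, beside 2.99% and 18.6% of all genes. With DESeq2 1 was called, *Sod1*, and 4 had an unadjusted p under 0.05, beside 7.04% of the genes with an adjusted p and 18.5% of all genes. All 10 confidence intervals lay within a 1.5-fold difference in either direction, and their widest bounds were -14.5% for *Sod1* and 19.2% for *Nfe2l2*. The ranges of the genotypes overlapped for all 10 genes, as they did for all but 0.0291% of all genes. Under the threshold in the study's methods, an FDR under 0.001 with a 1.5-fold change, 0 of the 17211 genes passed with limma, 0 with edgeR and 12 with DESeq2. The 10 genes were measured with 271 to 3916 reads per brain, and their coefficients of variation within a genotype were 3.03% to 11%.

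**Figure D1:**
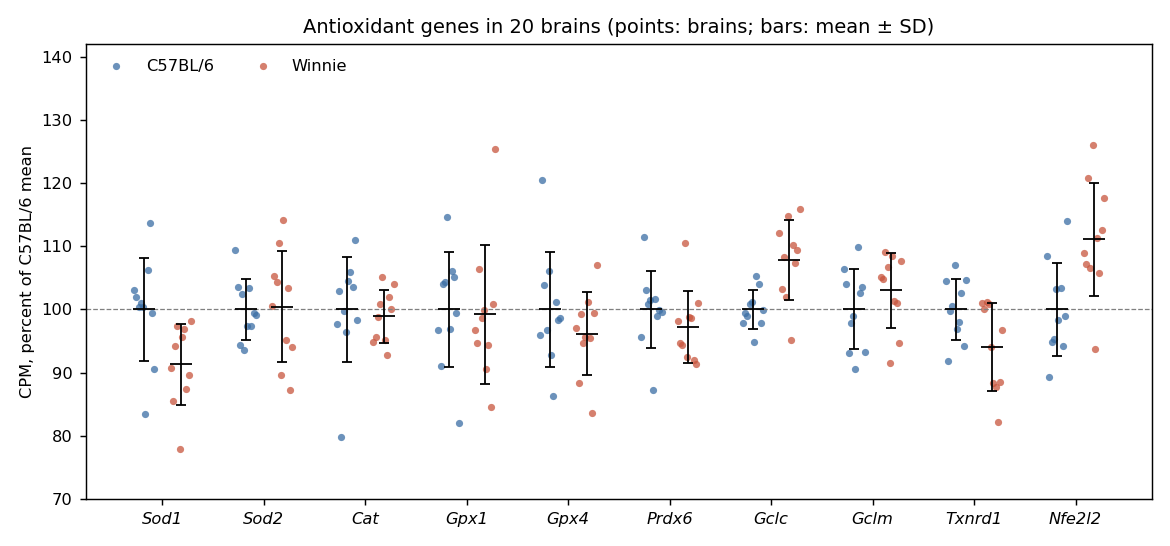
CPM of each gene in each brain as a percent of its C57BL/6 mean, with the mean and SD of the 10 C57BL/6 (blue) and 10 *Winnie* (orange) brains as bars. In *Winnie* brains all *Sod1* points sit below the C57BL/6 mean, and *Gclc* and *Nfe2l2* points sit mostly above it. The clouds of both genotypes overlap for all 10 genes.

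*Sod1* encodes the cytosolic copper-zinc superoxide dismutase and lies at chr16:90220754-90226329 on the plus strand of GRCm38, where *Scaf4* overlaps it on the other strand. In C57BL/6 brains *Sod1* ranged from 78.3 to 106.7 CPM with a median of 94.5. In *Winnie* brains it ranged from 73.2 to 92.1 CPM with a median of 86.8. All 10 *Winnie* brains were below the C57BL/6 median, and 8 of 10 C57BL/6 brains were above the highest *Winnie* brain, while the lowest C57BL/6 brains overlapped the *Winnie* range. Means were 93.8 ± 7.69 CPM in C57BL/6 and 85.7 ± 6.02 CPM in *Winnie* brains (SD, n = 10 each). The log2 fold change was -0.13 (SE 0.0477, 95% CI -0.23 to -0.03), or -8.55%, with an unadjusted p of 0.0112 and an FDR of 0.137 (limma). With DESeq2 the FDR of *Sod1* was 0.0296, and without C57BL/6 replicate 6 it was 0.0490 with limma, the only settings of 34 in which *Sod1* was called. The fold change was -0.12 among brains with *Ddx3y* RNA and -0.15 among those without it. The strand setting of the counting is not given in the sources used here, so reads of *Sod1* and *Scaf4* may not be separated.

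*Sod2* encodes the manganese superoxide dismutase of the mitochondrial matrix and lies at chr17:13006846-13040063 on the plus strand. It ranged from 126.8 to 148.5 CPM, with a median of 134.6, in C57BL/6 brains. In *Winnie* brains it ranged from 118.4 to 154.9 CPM, with a median of 138.2. The *Winnie* brains thus spread on both sides of the C57BL/6 range, with 2 above it and 2 below it. Means were 135.6 ± 6.53 and 136.2 ± 11.9 CPM (SD, n = 10 each), and the log2 fold change was 0.00 (95% CI -0.09 to 0.09, FDR 0.986 with limma).

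The log2 ratio of *Sod2* to *Sod1* sets the mitochondrial against the cytosolic enzyme within a brain and does not depend on how libraries are scaled. It was 0.53 ± 0.13 in C57BL/6 and 0.66 ± 0.13 in *Winnie* brains (SD, n = 10 each). In *Winnie* brains 7 of 10 ratios were above the C57BL/6 median and 3 were above the highest C57BL/6 brain. The difference of 0.13 (95% CI 0.01 to 0.25) had a two-sided permutation p of 0.0358, which became 0.107 after adjustment over the 3 ratios tested and so did not pass. Among the brains with *Ddx3y* RNA the difference was 0.10 with a permutation p of 0.332, and among those without it was 0.18 with a permutation p of 0.0339. Leaving out any 1 of C57BL/6 replicates 3, 5, 7 and 8 or of *Winnie* replicates 2, 4, 5, 6 and 8 raised the unadjusted p above 0.05, up to 0.0680.

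Catalase breaks down hydrogen peroxide in peroxisomes, and *Cat* lies at chr2:103453849-103485160 on the minus strand. *Cat* ranged from 40.6 to 56.4 CPM, with a median of 51.5, in C57BL/6 brains. In *Winnie* brains it ranged from 47.2 to 53.4 CPM, with a median of 50.6, so the *Winnie* brains lay inside the C57BL/6 range. Means were 50.8 ± 4.24 and 50.3 ± 2.13 CPM (SD, n = 10 each) and the log2 fold change was -0.01 (95% CI -0.10 to 0.08, FDR 0.931 with limma). Its sign differed between brains with *Ddx3y* RNA, at 0.07, and those without, at -0.07, and the interaction had an FDR of 0.903.

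*Gpx1* and *Gpx4* encode selenium-containing glutathione peroxidases. *Gpx1*, the common cytosolic one, lies at chr9:108338903-108340343 on the plus strand and ranged from 33.2 to 46.4 CPM, with a median of 41.2, in C57BL/6 brains. In *Winnie* brains it ranged from 34.2 to 50.8 CPM, with a median of 39.6. Although 8 of 10 *Winnie* brains were below the C57BL/6 median, the highest value of all was in a *Winnie* brain. Means were 40.5 ± 3.67 and 40.2 ± 4.43 CPM (SD, n = 10 each), and the log2 fold change was -0.01 (95% CI -0.13 to 0.10, FDR 0.937 with limma).

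*Gpx4* reduces lipid peroxides within membranes and is known as a guard against ferroptosis, an iron-dependent form of cell death. The gene lies at chr10:80047166-80056439 on the plus strand. It ranged from 25.5 to 35.6 CPM, with a median of 29.1, in C57BL/6 brains, and from 24.7 to 31.7 CPM, with a median of 28.5, in *Winnie* brains. The ranges overlapped, and 1 C57BL/6 brain was the highest of all. Means were 29.6 ± 2.69 and 28.5 ± 1.93 CPM (SD, n = 10 each) and the log2 fold change was -0.05 (95% CI -0.16 to 0.05, FDR 0.632 with limma). It was -0.13 among brains with *Ddx3y* RNA and -0.0085 among those without, and the interaction had an FDR of 0.936. The log2 ratio of *Gpx4* to *Gpx1* was -0.45 ± 0.20 in C57BL/6 and -0.49 ± 0.10 in *Winnie* brains, a difference of -0.04 (95% CI -0.19 to 0.11) with a permutation p of 0.583. GENCODE lists a processed copy of *Gpx4*, *Gpx4-ps2*, whose reads the counting could share.

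*Prdx6* encodes a peroxiredoxin with a single active cysteine that draws on glutathione and also has phospholipase activity. It lies at chr1:161240112-161251219 on the minus strand, and GENCODE lists the copies *Prdx6b* and *Prdx6-ps2* elsewhere, so its reads may also be shared. *Prdx6* ranged from 138.6 to 177.0 CPM, with a median of 159.4, in C57BL/6 brains and from 145.1 to 175.4 CPM, with a median of 153.1, in *Winnie* brains. The *Winnie* values lay inside the C57BL/6 range, with 8 of 10 below the C57BL/6 median. Means were 158.8 ± 9.59 and 154.3 ± 9.09 CPM (SD, n = 10 each) and the log2 fold change was -0.04 (95% CI -0.12 to 0.04, FDR 0.640 with limma). It was -0.094 among brains with *Ddx3y* RNA and -0.0015 among those without, and the interaction had an FDR of 0.939.

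*Gclc* encodes the catalytic subunit of glutamate-cysteine ligase and lies at chr9:77754535-77794485 on the plus strand. In C57BL/6 brains *Gclc* stayed within 53.0 to 58.8 CPM, with a median of 55.7. In *Winnie* brains it ranged from 53.1 to 64.7 CPM, with a median of 60.8. Of the 10 *Winnie* brains 9 were above the C57BL/6 median and 7 were above the highest C57BL/6 brain, while the lowest *Winnie* brain lay at the low end of the C57BL/6 range. Means were 55.8 ± 1.69 CPM in C57BL/6 and 60.2 ± 3.52 CPM in *Winnie* brains (SD, n = 10 each). The log2 fold change was 0.11 (SE 0.0369, 95% CI 0.03 to 0.18), or 7.62%, with an unadjusted p of 0.00744 and an FDR of 0.113 (limma), the smallest of the 10 genes. Without *Winnie* replicate 6 the fold change was 0.13 with an FDR of 0.0488, so 1 brain decided this call. The fold change was 0.11 among brains with *Ddx3y* RNA and 0.10 among those without it.

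*Gclm* encodes the modifier subunit, which raises the activity of the catalytic one, and lies at chr3:122245557-122270732 on the plus strand, where the listed gene *Gm17494* overlaps it on the other strand. It ranged from 63.7 to 77.2 CPM, with a median of 70.9, in C57BL/6 brains and from 64.4 to 76.7 CPM, with a median of 73.8, in *Winnie* brains. The *Winnie* range lay inside that of C57BL/6, with 8 of 10 *Winnie* brains above the C57BL/6 median. Means were 70.3 ± 4.46 and 72.5 ± 4.16 CPM (SD, n = 10 each) and the log2 fold change was 0.04 (95% CI -0.04 to 0.13, FDR 0.632 with limma). The log2 ratio of *Gclm* to *Gclc* was 0.33 ± 0.077 in C57BL/6 and 0.27 ± 0.14 in *Winnie* brains. Their difference of -0.06 (95% CI -0.17 to 0.05) had a permutation p of 0.242 and an adjusted p of 0.363, so a shift between the subunits was not detected.

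*Txnrd1* encodes the cytosolic thioredoxin reductase, a selenium-containing enzyme, and lies at chr10:82833951-82897712 on the plus strand. It ranged from 46.8 to 54.6 CPM, with a median of 51.1, in C57BL/6 brains and from 41.9 to 51.7 CPM, with a median of 48.7, in *Winnie* brains. At the ends of the distribution 4 *Winnie* brains were below the lowest C57BL/6 brain and 4 C57BL/6 brains were above the highest *Winnie* brain. Means were 51.0 ± 2.48 and 48.0 ± 3.54 CPM (SD, n = 10 each). The log2 fold change was -0.09 (SE 0.0429, 95% CI -0.18 to -0.00), or -5.99%, with an unadjusted p of 0.0463 and an FDR of 0.273 (limma). Among brains with *Ddx3y* RNA the fold change of *Txnrd1* was -0.18 (95% CI -0.32 to -0.04, FDR 0.232), and among those without it was -0.00 (95% CI -0.11 to 0.11). The difference between these sets, the interaction of genotype with *Ddx3y* RNA, had an unadjusted p of 0.0269 and an FDR of 0.808 (limma), so it did not pass. Of the 3 selenium-containing enzymes among the 10 genes, *Gpx1*, *Gpx4* and *Txnrd1*, none was called.

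*Nfe2l2* lies at chr2:75675513-75704641 on the minus strand. In C57BL/6 brains its RNA ranged from 15.5 to 19.8 CPM, with a median of 17.2. In *Winnie* brains it ranged from 16.3 to 21.9 CPM, with a median of 19.2. Of the 10 *Winnie* brains 9 were above the C57BL/6 median and 3 were above the highest C57BL/6 brain. Means were 17.4 ± 1.28 CPM in C57BL/6 and 19.3 ± 1.57 CPM in *Winnie* brains (SD, n = 10 each). The log2 fold change was 0.15 (SE 0.0524, 95% CI 0.04 to 0.25), or 10.7%, the largest difference in either direction among the 10 genes, with an unadjusted p of 0.00900 and an FDR of 0.124 (limma). It was 0.13 among brains with *Ddx3y* RNA and 0.17 among those without it, and between 0.13 and 0.17 when each brain was left out in turn, with FDRs from 0.0590 to 0.203.

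**Figure D2:**
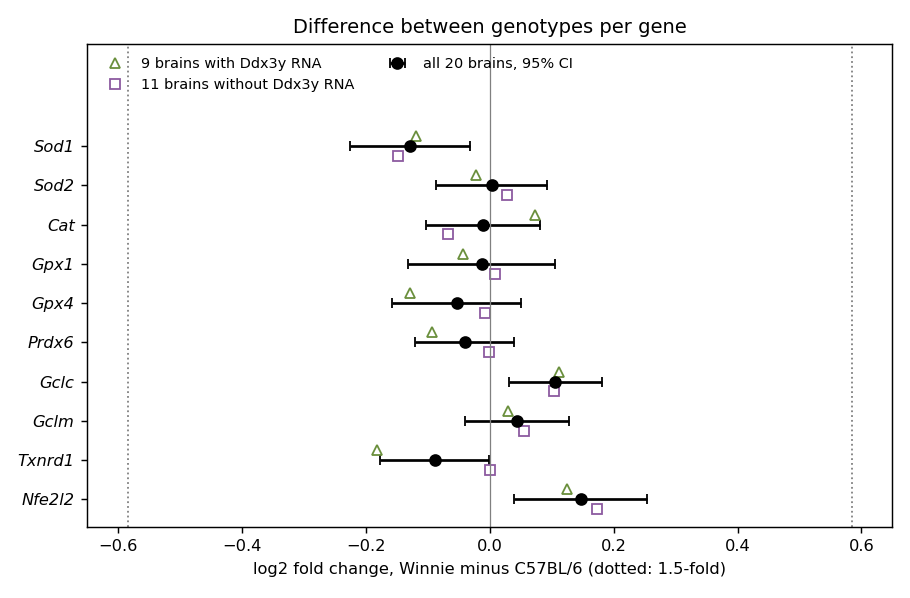
Log2 fold change of each gene, *Winnie* minus C57BL/6, over all 20 brains (black points, bars are 95% confidence intervals) and within the 9 brains with (green triangles) and 11 brains without *Ddx3y* RNA (purple squares), with dotted lines at a 1.5-fold difference. The intervals of *Nfe2l2*, *Gclc*, *Sod1* and *Txnrd1* leave out 0, all intervals lie well inside the dotted lines, and the triangle and square lie farthest apart for *Txnrd1*.

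Brains of 1 genotype also differed among themselves, so the RNA of each enzyme was compared with that of *Nfe2l2* over the 20 brains after the genotype means were taken off. None of the 9 relations passed after adjustment over the 9, and with median-ratio scaling 1 did, that of *Gclc* (r = 0.69, adjusted permutation p 0.0181). For *Gclc*, Pearson's r was 0.56 (permutation p 0.0155, adjusted p 0.139) and Spearman's rho was 0.42 (permutation p 0.0640, adjusted p 0.425). Without the 2 brains farthest from the median of *Nfe2l2*, *Winnie* replicate 6 and C57BL/6 replicate 10, r for *Gclc* was 0.42 (permutation p 0.0840). The unadjusted p was thus above 0.05 with fewer brains, and what each of the 2 contributed was not tested. With median-ratio scaling the 2 farthest brains were *Winnie* replicates 5 and 6, and without them r for *Gclc* was 0.34 (permutation p 0.141). Within *Winnie* brains r for *Gclc* was 0.84 and within C57BL/6 brains it was -0.01, a difference that was not tested. For *Txnrd1* r was 0.42 (permutation p 0.0772, adjusted p 0.267) and rho was 0.38. For *Sod2* r was -0.41 (permutation p 0.0890, adjusted p 0.267) and rho was -0.31. Within *Winnie* and C57BL/6 brains r was 0.31 and 0.63 for *Txnrd1* and -0.70 and 0.17 for *Sod2*, differences that were not tested. Without *Winnie* replicate 6 and C57BL/6 replicate 10, r was 0.33 for *Txnrd1* (permutation p 0.182) and -0.26 for *Sod2* (permutation p 0.294). Within the brains with and without *Ddx3y* RNA, r was 0.72 and 0.37 for *Gclc*, 0.61 and 0.04 for *Txnrd1*, and -0.48 and -0.44 for *Sod2*. The other 6 enzymes had r between -0.32, for *Sod1* and *Prdx6*, and 0.20, for *Gpx1*. *Gclm*, the partner subunit of *Gclc*, had an r of -0.24 with *Nfe2l2* and a rho of -0.01.

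**Figure D3:**
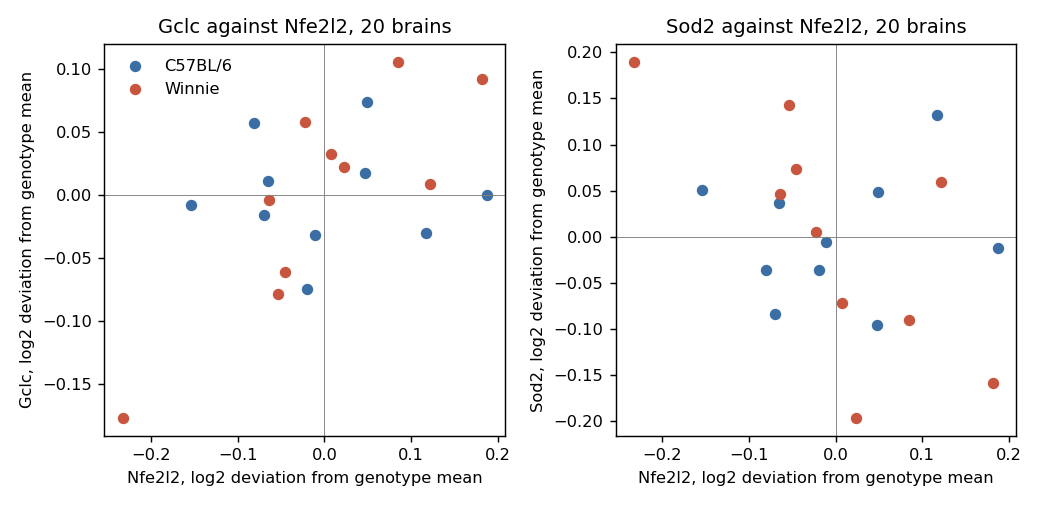
Deviation of each brain from the mean of its genotype, in log2(CPM + 0.5), for *Nfe2l2* (horizontal axis) against *Gclc* (left) and *Sod2* (right), with C57BL/6 brains in blue and *Winnie* brains in orange. *Winnie* replicate 6, at the lower left of the *Gclc* panel and the upper left of the *Sod2* panel, is the brain farthest from the rest, and r is 0.56 for *Gclc* and -0.41 for *Sod2*.

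Among the 10 genes themselves the enzymes moved together in other pairs. As a description over the 20 brains, which share library depth between the genes of a pair, r was 0.74 for *Sod1* with *Gclm*, 0.67 for *Sod2* with *Gclm* and 0.60 for *Sod1* with *Prdx6*, and it was -0.64 for *Sod2* with *Gclc*. The genes whose pattern was most like each of the 10 were searched among 11976 genes with a mean of at least 5 CPM, by r over the 20 brains after genotype means were taken off. *Sod1* was most like *Fam216a* (r = 0.90), *Dnajc7* (0.89) and *Ercc3* (0.88), and *Sod2* was most like *Pura* (0.91), *Kif21a* (0.91) and *Rlim* (0.90). *Gclm* was most like *Tmx4* (0.91), *Gdi2* (0.90) and *Hs6st2* (0.89), and *Prdx6* was most like *Psmb4* (0.88), *Ilvbl* (0.87) and *Qdpr* (0.87). *Gclc* was most like *Mbd2* (0.83), *Sgce* (0.79) and *Gnpda1* (0.78), and *Nfe2l2* was most like *Pom121* (0.79), *Ubap2* (0.79) and *Pprc1* (0.76). *Cat* was most like *Vangl2* (0.87), *Tox2* (0.77) and *Unc13c* (0.77), and *Gpx1* was most like *Rnf114* (0.83), *Rap1gap* (0.78) and *Wdr83os* (0.78). *Gpx4* was most like *Oplah* (0.80), *Fuom* (0.77) and *Zfand2b* (0.77), and *Txnrd1* was most like *Hrh1* (0.83), *Racgap1* (0.78) and *Klf4* (0.78). No gene of these triplets was itself one of the 10. Each triplet holds the highest r of a search over 11976 genes, which selects for high values, and these likenesses were not tested.

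The other genes of the same pathways were described in 9 lists, which hold 79 measured genes, the 10 included. Of these, 1 was called as higher and 1 as lower in *Winnie* brains (limma, beside 1.52% and 1.01% of all genes). At an unadjusted p under 0.05, 11 were higher and 12 were lower, 29.1% of the lists. The share was 17.6% over all genes and 21.7% over genes with a mean of at least 10 CPM. The lists were chosen with earlier results of these data known. The median log2 fold change of the 79 was -0.02 beside 0.002 over all genes.

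*Sepp1*, listed under its older symbol and now named *Selenop*, encodes the plasma protein that carries selenium to tissues, from which *Gpx1*, *Gpx4* and *Txnrd1* are made. It ranged from 216.4 to 290.6 CPM, with a median of 265.3, in C57BL/6 brains and from 262.7 to 325.4 CPM, with a median of 298.2, in *Winnie* brains. Of the *Winnie* brains 9 of 10 were above the C57BL/6 median and 6 were above the highest C57BL/6 brain. *Sepp1* rose by 0.19 on the log2 scale (SE 0.0490, FDR 0.0327 with limma), and its FDR was 0.110 without C57BL/6 replicates 3 and 5. Leaving out any 1 of C57BL/6 replicates 3, 4 and 5 or of *Winnie* replicates 2, 3, 7, 8 and 10 also ended the call, with FDRs from 0.0506 to 0.0609. Its fold change was 0.22 (FDR 0.170) in brains with and 0.17 (FDR 0.392) in brains without *Ddx3y* RNA. The other 8 genes of selenoprotein synthesis and selenium transport were not called.

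*Ftl1*, the ferritin light chain that stores iron and a known Nrf2 target, was the gene called as lower. It ranged from 94.7 to 114.7 CPM, with a median of 103.1, in C57BL/6 brains and from 77.1 to 101.2 CPM, with a median of 92.7, in *Winnie* brains. All 10 *Winnie* brains were below the C57BL/6 median and 7 were below the lowest C57BL/6 brain. *Ftl1* fell by 0.21 on the log2 scale (SE 0.0489, FDR 0.0209 with limma), and its FDR was 0.0866 without C57BL/6 replicates 3 and 5, 0.0514 without replicate 5 alone and 0.0699 with a correction for gene length and GC content. Within the smaller sets it was -0.24 (FDR 0.186) with and -0.18 (FDR 0.295) without *Ddx3y* RNA. GENCODE lists the copies *Ftl1-ps1* and *Ftl1-ps2*, with which its reads may be shared. Among the 14 other Nrf2 target genes, *Ftl1* included, 7 had positive and 7 negative fold changes, with a median of -0.02.

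Among Nrf2 and its 10 regulators none was called. The smallest p belonged to *Bach1*, a repressor that competes with Nrf2 for the same elements, at 14.1 ± 1.26 CPM in C57BL/6 and 16.1 ± 1.15 CPM in *Winnie* brains (SD, n = 10 each). Its log2 fold change was 0.19 (SE 0.0543, FDR 0.0541 with limma), and its FDR was 0.0428 with edgeR and 0.0194 with DESeq2. Leaving out C57BL/6 replicate 1, 7 or 10 or *Winnie* replicate 1 brought the FDR of *Bach1* to between 0.0254 and 0.0483. Counting these, *Bach1* was called in 9 alternatives and not in the other 25. Of the 7 peroxiredoxin and sulfiredoxin genes 6 had negative fold changes and none was called, with the smallest p for *Prdx1*, at -0.10 (FDR 0.252). The thioredoxin and glutaredoxin list had 7 negative values of 10 and a median of -0.05, and the mitochondrial thioredoxin *Txn2* had the smallest p, at -0.10 (FDR 0.0817 with limma and 0.0419 with DESeq2). Of the 13 genes of NADPH supply none was called with limma, and *Taldo1*, transaldolase of the pentose phosphate pathway, had the smallest p, at -0.16 (FDR 0.0723 with limma, 0.0422 with edgeR and 0.0138 with DESeq2). Without C57BL/6 replicate 10 or *Winnie* replicate 4 the FDR of *Taldo1* was 0.0318 or 0.0307. Counting these, *Taldo1* was called in 6 alternatives and not in the other 28. Glutathione synthesis and recycling had 5 positive values of 9 and a median of 0.04, with *Gclc* as the gene of smallest p. The superoxide dismutases and their copper chaperone had a median of -0.06 over 4 genes, with *Sod1* as the gene of smallest p. Of the 6 glutathione peroxidase and catalase genes measured 5 were negative, and the smallest p belonged to the secreted enzyme *Gpx3*, at 0.23 (FDR 0.402).

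**Figure D4:**
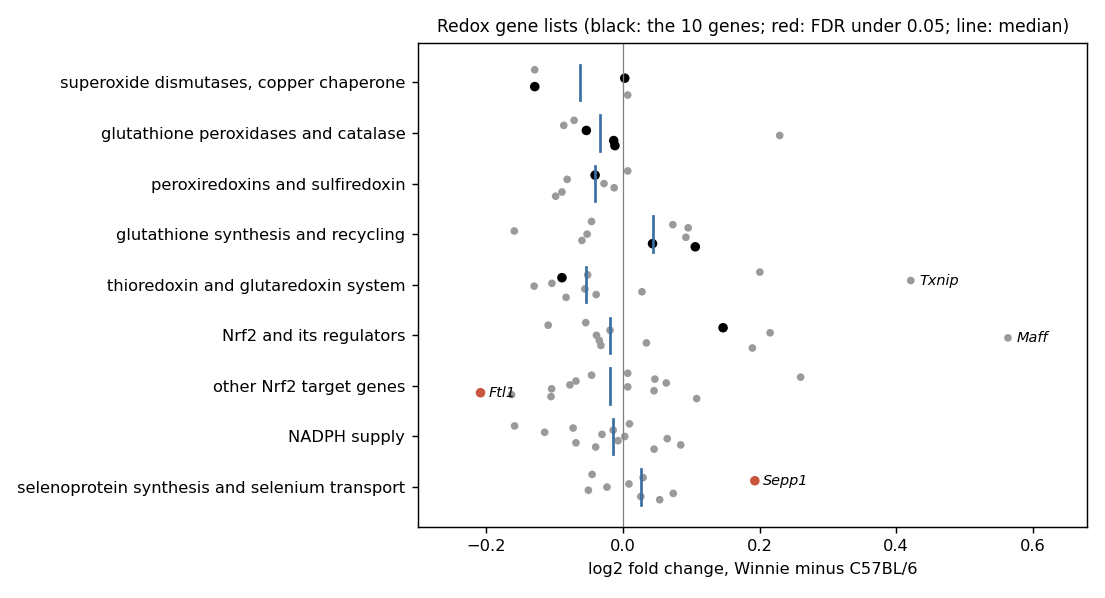
Log2 fold changes, *Winnie* minus C57BL/6, of the 79 measured genes of 9 redox lists, with the 10 genes of this report in black, genes called at FDR under 0.05 in red and the median of each list as a blue line. All list medians lie within 0.07 of 0, and *Ftl1* and *Sepp1* are the called genes.

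Levels can be compared between genes only per length. On CPM per kilobase of the principal transcript, *Sod1* was highest in both genotypes, with means of 146 in C57BL/6 and 134 in *Winnie* brains, followed by *Prdx6* with 66.5 and 64.7. *Gpx1*, with means of 37.8 and 37.5, came next, then *Gpx4* with 30.9 and 29.7, and the ranges of these peroxidases overlapped in both genotypes. *Sod2* had 23.1 and 23.2, *Cat* 19.5 and 19.2, and *Gclc* 16.3 and 17.6 CPM per kilobase. The ranges of *Cat* and *Gclc* overlapped in both genotypes, and those of *Sod2* and its neighbours *Gpx4* and *Cat* overlapped in *Winnie* but not in C57BL/6 brains. *Txnrd1*, with 14.5 and 13.6, and *Gclm*, with 12.6 and 13, overlapped in both genotypes. *Nfe2l2* was lowest with 7.03 and 7.81, below *Gclm* in every brain. The order of the means was the same in both genotypes. Over the union of all annotated exons the order differed, and *Prdx6*, with a mean of 33.1 in C57BL/6 brains, and *Gpx1*, with 28.1, were above *Sod1*, with 23.6, since the union for *Sod1* is 3970 bases and its principal transcript 641 bases.

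**Figure D5:**
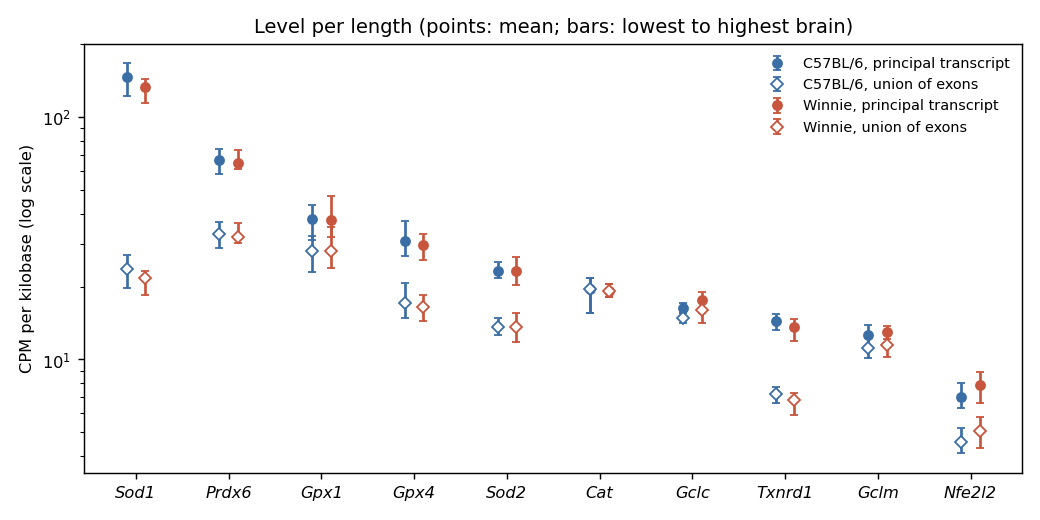
Level of each gene in CPM per kilobase on a log axis, in C57BL/6 (blue) and *Winnie* (orange) brains, over the principal transcript (filled circles) and over the union of exons (open diamonds), with bars from the lowest to the highest brain. *Nfe2l2* is lowest on both lengths, and the place of *Sod1* depends on which length is used.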

How the data were processed

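Brain RNA of 14-week-old *Winnie* and C57BL/6 mice was made into polyA libraries and sequenced as paired ends. The authors mapped reads to GRCm38 with RNAsik 1.5.4, counted them per gene with FeatureCounts, and deposited CPM from Degust, reads scaled to the same total of listed genes in each library. The strand setting and the low-count filter are not given in the sources used here. The value of 1 read, 0.0418 to 0.0605 CPM, was read from the lowest steps of each library. Over 99.99% of values were whole reads within 0.01 read beyond the rounding of the deposited CPM.

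Groups are the labelled genotypes, with 10 mice each. The log2(CPM + 0.5) values were compared with limma 3.58.1 (trend, robust) in R 4.3.3, with Benjamini-Hochberg adjustment over all 17211 genes, and nothing was filtered. Alternatives were other pseudocounts, filters and scalings, sex or *Ddx3y* RNA as covariates, a replicate block, count tests on the recovered reads (edgeR 4.0.16, DESeq2 1.42.0), and each brain left out. The sets by *Ddx3y* RNA, the length and GC correction, the omission of C57BL/6 replicates 3 and 5 and the principal-transcript length were chosen after seeing the data. Ratios and relations were tested by two-sided permutation with 100000 resamples (scipy 1.17.1). Scripts were tested on simulated counts.

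The genes and lists were chosen with earlier results of these data known. Genes named are the 10, list genes called or, in a list without calls, that of smallest p, label genes, and the 3 genes most alike to each of the 10. Annotation is GENCODE M21, which matched 17128 genes.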

Additional observations from a re-analysis of the deposited data

Results flagged for a closer look

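In each genotype the brain at either end was compared with its nearest neighbour, over 26 sets of 10 values (the 10 genes and 3 ratios), and about 1 set in 20 passes Dixon's critical value of 0.466 by chance. *Cat* in C57BL/6 replicate 3, at 40.6 CPM, was the lowest of its group by a gap of 0.532 of the range. *Prdx6* in *Winnie* replicate 4, at 175.4 CPM, was the highest of its group by a gap of 0.493 of the range.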

How the results depend on the processing

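*Nfe2l2*, *Gclm*, *Gpx4*, *Prdx6* and *Txnrd1* kept their direction and stayed uncalled in all 34 alternatives, although *Gpx4*, *Prdx6* and *Txnrd1* were near 0 (-0.0085, -0.0015 and -0.00022) in brains without *Ddx3y* RNA. *Sod1* and *Gclc* kept their direction in all 34. *Sod1* was called with DESeq2 (-0.13, FDR 0.0296). With each brain left out in turn, *Sod1* ranged from -0.16 to -0.10 and *Gclc* from 0.094 to 0.13, with 0 or 1 of the 10 genes called, namely *Sod1* without C57BL/6 replicate 6 or *Gclc* without *Winnie* replicate 6. DESeq2 called 1 of the 10.

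Fold changes near 0 changed sign, and none of them was called. *Sod2* was -0.00047 with median-ratio scaling, -0.0056 with quantile normalization, -0.023 in brains with *Ddx3y* RNA, -0.038 with the length and GC correction, -0.020 without C57BL/6 replicates 3 and 5, and -0.018 to 0.025 with each brain left out. *Cat* was 0.073 in brains with *Ddx3y* RNA, 0.011 with the length and GC correction and -0.047 to 0.0054 with each brain left out. *Gpx1* was 0.0090 in brains without *Ddx3y* RNA, 0.028 with the length and GC correction, 0.019 without C57BL/6 replicates 3 and 5, and -0.051 to 0.011 with each brain left out. The log2 ratio of *Gpx4* to *Gpx1* ranged from -0.073 to 0.0041 with each brain left out. For the ratio of *Sod2* to *Sod1* the difference was 0.096 (permutation p 0.332) in brains with and 0.18 (permutation p 0.0339) in brains without *Ddx3y* RNA, and 0.11 to 0.16 (permutation p 0.0122 to 0.0680) with each brain left out. With median-ratio scaling 1 of the 9 relations of *Nfe2l2* passed, that of *Gclc*.

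The genes called over the whole table numbered 434, and 977 with DESeq2, 5 and 53 in brains with and without *Ddx3y* RNA, where fewer brains entered, 67 without C57BL/6 replicates 3 and 5, and 169 (without C57BL/6 replicate 5) to 694 (without C57BL/6 replicate 10) with each brain left out. The study's threshold passed 12 genes with DESeq2, 1 with the length and GC correction and 0 to 2 with each brain left out. Where no construction shows it, the cause was not tested.

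Replicate numbers recur in both genotypes but nothing ties them to shared animals, and same-numbered brains correlated with r from -0.434 to 0.274, over 0.1 in 1 of 10 pairs, with 0 brains correlating best with their own number. With a replicate block 227 genes were called and the ratio of *Sod2* to *Sod1* differed by 0.13 (exact sign-flip p 0.0527).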
